A study of Rattus norvegicus with 6 samples.

Results

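Parathyroid hormone and vitamin D act on osteoblasts through the genes described here: 3 receptors (Pth1r, Vdr and Rxra), the hydroxylases that make and remove active vitamin D (Cyp27b1 and Cyp24a1), and the osteoclast-regulating ligand Tnfsf11 with its decoy receptor Tnfrsf11b. The 7 genes were chosen by name, and a probe set, the group of array probes that reports a transcript, was taken for a gene where the array's annotation gave it exactly 1 symbol. This gave 8 probe sets of 31042 on the array, standing for 6 of the 7 genes. Pth1r and Tnfsf11 had 2 probe sets each, and Cyp24a1, the hydroxylase that inactivates the hormone, had none of its own name and was not analysed here.

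The cultures were of UMR106-01, a clonal rat osteosarcoma line with properties of osteoblasts, grown in medium with 10% fetal bovine serum. At 64 h after plating all 6 were given fresh medium that held 6.5 mM beta-glycerol phosphate, a phosphate donor for mineral formation, and RNA was taken at 76 h. In 3 mineralizing cultures nothing else was added, and in 3 AEBSF cultures the new medium also held AEBSF at 400 µM, so that they had met this irreversible serine protease inhibitor for 12 h. The labels name no added parathyroid hormone or vitamin D, and both groups had beta-glycerol phosphate. The treatments named in the labels thus differ only in the inhibitor. Whether mineral formed in either group was not measured here, so effects of AEBSF with and without a change in mineral cannot be told apart. The labels number the samples of a group as replicates and describe each as a culture, but do not say that they were grown independently. The p-values therefore rest on the spread between these samples, which may be partly technical, and on that of other probe sets of like signal.

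Parathyroid hormone binds a G protein-coupled receptor on osteoblasts and raises cyclic AMP, which activates protein kinase A and transcription factors of the CREB family. The active form of vitamin D, calcitriol, binds the vitamin D receptor, a nuclear receptor that acts on DNA as a pair with a retinoid X receptor. In osteoblasts both hormones are known to raise the transcript of Tnfsf11 (RANKL), the ligand that drives osteoclast formation. Tnfrsf11b (osteoprotegerin) is secreted and captures that ligand.

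With AEBSF the transcript for the osteoclast-inducing ligand fell and that for the vitamin D activating enzyme rose, while the 3 receptors and the decoy did not pass the test. Tnfsf11 fell 1.57-fold and its other probe set 1.53-fold, and Cyp27b1 rose 1.68-fold. Of the 6 genes, all 6 were bright enough to be tested, 1 rose, 1 fell and 4 did not pass. A gene was called at a limma adjusted p under 0.05, a rule met by 16.3% of all 9864 tested genes, 7.09% higher and 9.22% lower. With only 6 genes nothing is read from their share of calls against that background, and the results below concern the genes singly. Among all tested genes, 2.12% changed by as much as Tnfsf11 and 1.25% by as much as Cyp27b1, in either direction. Both genes are dim, with SEs of 0.15 and 0.18 against a median of 0.11 over all tested probe sets. The shares among genes of like signal were not taken.

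**Figure D1:**
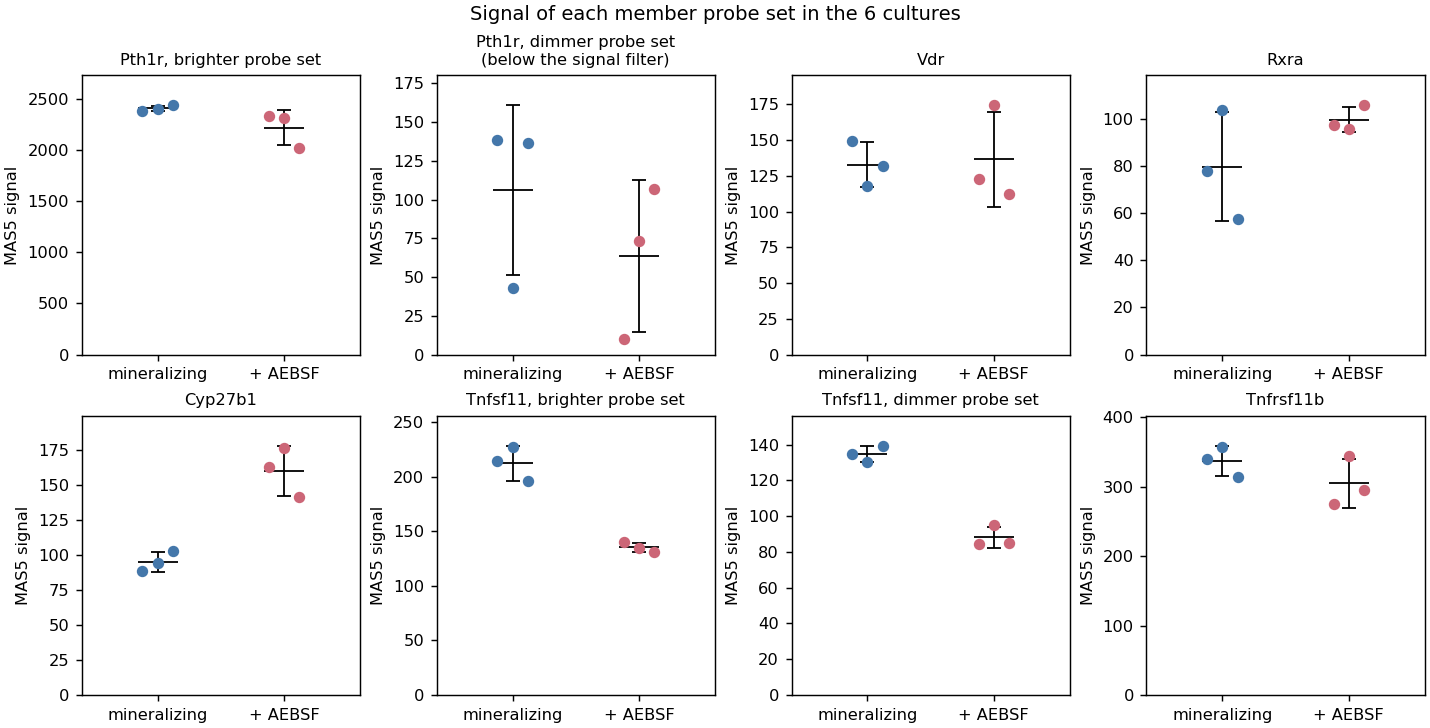
MAS5 signal (linear axis from 0) of the 8 probe sets in the 3 mineralizing cultures (blue) and the 3 AEBSF cultures (red), each point 1 culture, replicates 1 to 3 from left to right; horizontal marks are group means and bars are ± SD. The groups are apart for Cyp27b1, for both Tnfsf11 probe sets and, narrowly, for the brighter Pth1r probe set, and overlap for the other 4. They are apart for 36.1% of all tested genes.

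The stretches of genome just upstream of the genes that changed are shown, and sequence further away was not searched. They are the 250 bases before the gene start on the coding strand, from the RefSeq annotation of rat assembly GRCr8, at chr7:64756376-64756625 (plus strand) for Cyp27b1 and chr15:60114480-60114729 (minus strand) for Tnfsf11. Of the 7 genes, 5 matched an entry of that table by symbol. Capitals mark matches to the motifs listed after the sequences.
Cyp27b1: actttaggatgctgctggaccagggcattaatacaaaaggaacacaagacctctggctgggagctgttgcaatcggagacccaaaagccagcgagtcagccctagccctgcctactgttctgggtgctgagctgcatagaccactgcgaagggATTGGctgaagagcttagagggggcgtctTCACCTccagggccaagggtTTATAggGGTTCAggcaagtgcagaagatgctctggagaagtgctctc
Tnfsf11: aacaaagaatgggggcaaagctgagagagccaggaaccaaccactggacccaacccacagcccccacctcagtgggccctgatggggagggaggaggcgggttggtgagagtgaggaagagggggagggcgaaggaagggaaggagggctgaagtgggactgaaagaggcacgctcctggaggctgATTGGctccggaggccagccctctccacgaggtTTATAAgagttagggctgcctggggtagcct

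The motifs were searched on both strands, each as a single stretch and not as spaced pairs. For vitamin D response elements they were the general nuclear receptor hexamer AGGTCA, the osteopontin-type hexamer GGTTCA, and the variant hexamer AGGTGA. The others were the cyclic AMP response element TGACGTCA, which contains its shorter core, TGACG, the Runx hexamer TGTGGT, the promoter box named by its letters CCAAT, and the core of the TATA box, TATAA. They were chosen with these windows in view. The Cyp27b1 window held GGTTCA from 41 to 36 bases before the start and, on the reverse strand, AGGTGA from 68 to 63, TATAA from 48 to 44 and CCAAT from 97 to 93. In the Tnfsf11 window CCAAT matched on the reverse strand from 64 to 60 bases before the start, and TATAA matched on both strands in overlapping positions from 31 to 26. Across 33469 windows of the same length, 9.77% held GGTTCA, 14% AGGTGA, 34% CCAAT and 24% TATAA, so each of these matches is common. GGTTCA also matched in the window of Vdr, which did not pass, on the reverse strand from 136 to 131. Neither window held AGGTCA (14.1% of windows), TGACG (18.2%), TGACGTCA (1.59%) or TGTGGT (14.5%), which says only that these letters are not in these windows.

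Pth1r is the receptor for parathyroid hormone and its related peptide. Its brighter probe set, whose mean lay at percentile 93.3 of all probe sets on the array, gave signals of 2384, 2401 and 2437 in the mineralizing cultures and 2329, 2314 and 2018 in the AEBSF cultures. All 3 AEBSF values lay below all 3 mineralizing values, but by a narrow margin, and AEBSF culture 3 was the lowest. The group means were 2407 ± 27.0 and 2220 ± 175 (SD, n = 3 cultures each), and the change did not pass (log2 change -0.12 with SE 0.06 and an adjusted p = 0.25 in limma). Its 95% interval on the log2 scale ran from -0.26 to 0.02, and without AEBSF culture 3 the change was -0.052. Scaling to the hybridization controls gave -0.27 (adjusted p = 0.075 in limma). Groups that do not overlap were found for 36.1% of tested genes, and those with the AEBSF values below made up 19.1% of tested genes.

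The dimmer Pth1r probe set lay under the signal filter, a mean signal of 67.2, and was not tested. It read 138, 43.0 and 137 in the mineralizing cultures and 10.1, 73.2 and 107 in the AEBSF cultures. Its values overlapped between groups and spread widely within each of them.

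Vdr, the vitamin D receptor, was dim, at percentile 50.7 of the array, where brightness reflects the probes as well as the amount of RNA. Its signals were 149, 118 and 132 in the mineralizing cultures and 123, 174 and 112 in the AEBSF cultures, a set of values that overlapped throughout. AEBSF culture 2 was the highest of the 6. The group means were 133 ± 15.6 and 137 ± 33.1 (SD, n = 3 each; log2 change 0.02 with SE 0.20 and an adjusted p = 0.964 in limma), with a 95% interval from -0.42 to 0.46. The sign of so small a difference turned without AEBSF culture 2 (-0.17), without mineralizing culture 2 (-0.06) and with the arrays scaled to their hybridization controls (-0.13).

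Rxra, a retinoid X receptor that pairs with Vdr, lay at percentile 44.2, just above the filter at percentile 40. It read 77.9, 104 and 57.8 in the mineralizing cultures and 97.6, 95.8 and 106 in the AEBSF cultures. The AEBSF values lay close together, with mineralizing culture 2 inside their range and the other mineralizing cultures below it. With means of 79.8 ± 23.0 and 99.7 ± 5.38 (SD, n = 3 each) the change did not pass (log2 change 0.36 with SE 0.25 and an adjusted p = 0.369 in limma), and its 95% interval ran from -0.17 to 0.90. Without mineralizing culture 3 the log2 change was 0.15 and without mineralizing culture 2 it was 0.57. The interval of Vdr thus leaves out changes of 0.65, the size seen for Tnfsf11, while the upper bound of Rxra lies beyond it.

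Cyp27b1 encodes the mitochondrial hydroxylase that converts the circulating form of vitamin D to calcitriol, a step best known from the kidney and also found in bone cells. It was dim as well, at percentile 49.4. Its signals were 88.4, 94.1 and 103 in the mineralizing cultures and 163, 176 and 141 in the AEBSF cultures. Every AEBSF culture lay above every mineralizing culture, which held for 17.0% of tested genes. The gap between the groups was wider than the range within either. The mean rose from 95.1 ± 7.21 to 160.0 ± 17.8 (SD, n = 3 each; 1.68-fold; log2 change 0.75 with SE 0.18 and an adjusted p = 0.0189 in limma), with a 95% interval from 0.36 to 1.14. As for every gene here, more RNA per cell and more cells carrying the transcript cannot be told apart in a whole-culture extract.

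Cyp27b1 no longer passed when mineralizing culture 1 or 2 was left out (adjusted p = 0.0671 and 0.0573 in limma), when AEBSF culture 1 or 2 was (0.0581 and 0.0596), or under scaling to the hybridization controls (0.0681). Adding 64 to each signal, which shrinks the changes of dim genes, brought the log2 fold change to 0.49.

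Tnfsf11 encodes RANKL, the TNF-family ligand through which osteoblasts and osteocytes drive the formation of osteoclasts. Its brighter probe set, at percentile 54.4, read 214, 227 and 196 in the mineralizing cultures and 139.8, 135 and 131 in the AEBSF cultures. The AEBSF values lay within a narrow band, well below the lowest mineralizing value. All 3 AEBSF values lay below for 19.1% of tested genes. The mean fell from 212 ± 15.9 to 135 ± 4.51 (SD, n = 3 each; 1.57-fold; log2 change -0.65 with SE 0.15 and an adjusted p = 0.0145 in limma), with a 95% interval from -0.97 to -0.33.

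The dimmer Tnfsf11 probe set, annotated to the same transcript and at percentile 47.5, read 135, 130.2 and 139 in the mineralizing cultures and 84.3, 94.7 and 85.0 in the AEBSF cultures. Here too the groups were fully apart. The mean fell from 135 ± 4.53 to 88.0 ± 5.83 (SD, n = 3 each; 1.53-fold; log2 change -0.62 with SE 0.18 and an adjusted p = 0.0436 in limma). The probe sets come from the same RNA and are not replicates of each other.

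The call on the brighter Tnfsf11 probe set was lost without mineralizing culture 1 or 2 (adjusted p = 0.0571 and 0.0683 in limma). That on the dimmer one was lost without mineralizing culture 1, 2 or 3 (adjusted p = 0.122, 0.106 and 0.12 in limma) or AEBSF culture 1, 2 or 3 (0.101, 0.0559 and 0.0843), with no signal filter (0.102) and after median centring (0.051), and adding 64 to each signal brought its log2 fold change to -0.39.

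**Figure D2:**
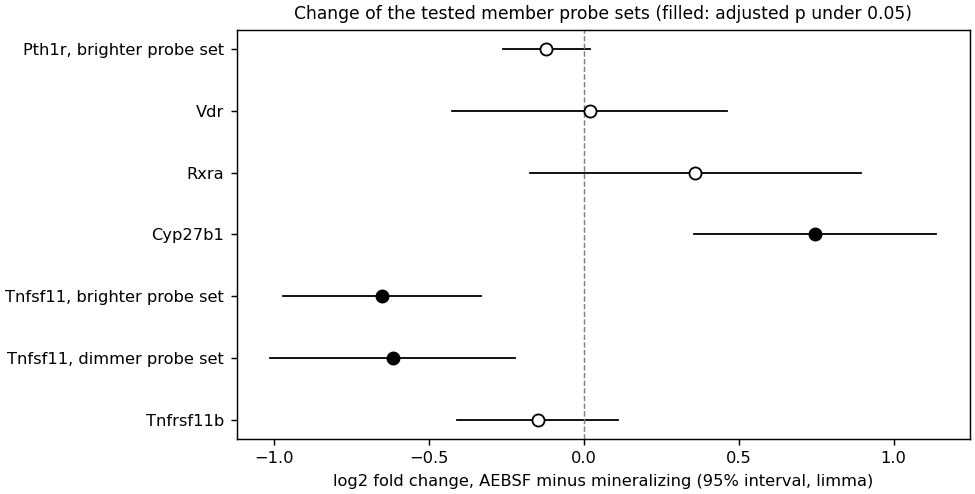
Log2 fold change, AEBSF minus mineralizing, of the 7 tested probe sets (points) with limma's 95% intervals (lines); filled points passed an adjusted p of 0.05. The intervals of Cyp27b1 (0.36 to 1.14) and of both Tnfsf11 probe sets exclude 0, and those of Pth1r, Vdr, Rxra and Tnfrsf11b include it.

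Tnfrsf11b, the decoy receptor osteoprotegerin, limits bone resorption by binding RANKL. Its signals, at percentile 64.5, were 339, 358 and 314 in the mineralizing cultures and 275, 344 and 296 in the AEBSF cultures. AEBSF culture 2 lay inside the mineralizing range and the other AEBSF cultures below it. The means were 337 ± 22.1 and 305 ± 35.3 (SD, n = 3 each), and the change did not pass (log2 change -0.15 with SE 0.12 and an adjusted p = 0.453 in limma; 95% interval -0.41 to 0.11). The change was -0.077 without AEBSF culture 1, -0.24 without AEBSF culture 2 and -0.29 with the arrays scaled to their hybridization controls.

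The ligand and its decoy are commonly read as a ratio, and its change was compared within each array, which removes any scaling of the array as a whole. The level of the ratio itself has no meaning here, since probe sets differ in brightness, so the log2 ratio is given relative to its mineralizing mean. With the brighter Tnfsf11 probe set it was 0.0019, 0.013 and -0.015 in the mineralizing cultures and -0.31, -0.68 and -0.51 in the AEBSF cultures. The ratio was lower in all 3 AEBSF cultures than in any mineralizing culture, by 0.50 on average on the log2 scale, or 1.42-fold (SD 0.014 and 0.19, n = 3 each). With the dimmer probe set the AEBSF values were -0.39, -0.54 and -0.48, a mean of -0.47, against mineralizing values from -0.14 to 0.15. The exact two-sided permutation test gave p = 0.1 for each probe set, the smallest that 3 arrays against 3 allow, so this test could not reach 0.05 whatever the values, and no call is made on the ratio.

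**Figure D3:**
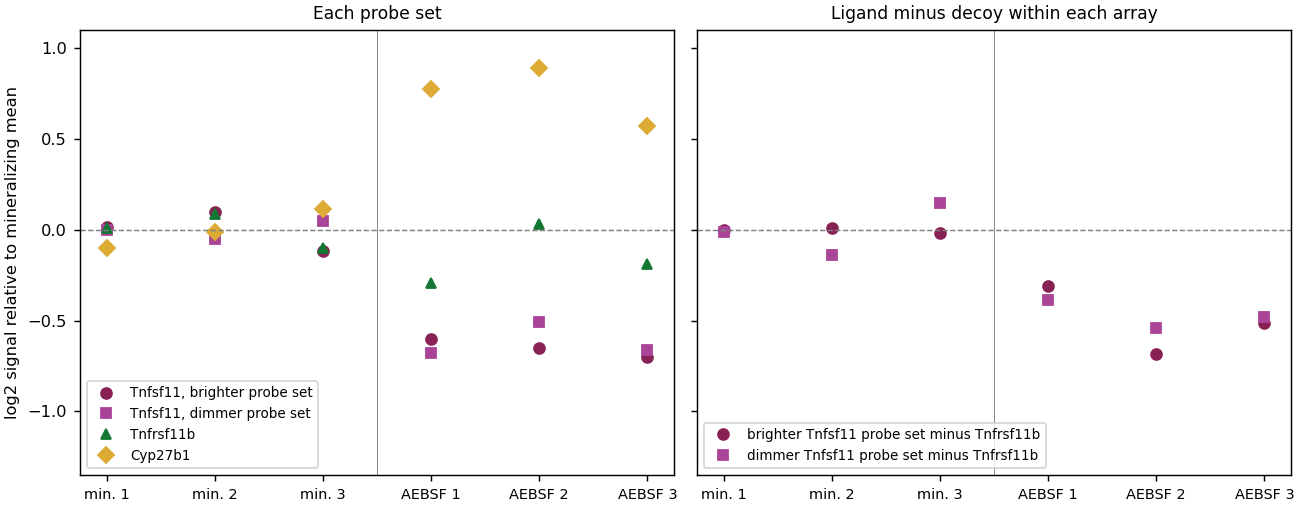
Log2 signal of each culture relative to the mineralizing mean, for the Tnfsf11 probe sets, Tnfrsf11b and Cyp27b1 (left), and for Tnfsf11 minus Tnfrsf11b within each array (right); each point is 1 culture. The AEBSF cultures lie from -0.31 to -0.68 on the right for the brighter probe set, and Tnfrsf11b overlaps 0 on the left.

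Around the receptor, genes of parathyroid hormone signalling from the ligands to cyclic AMP were mostly among those that did not pass: of 34 listed, 26 were tested, 1 rose, 2 fell and 23 did not pass. The median log2 fold change was 0.07, against 0.0025 over all tested genes, of which 16.3% were called. Crem is a CREB-family gene whose short product ICER is induced by cyclic AMP and represses transcription driven by it. Crem read 602, 659 and 656 in the mineralizing cultures and 483, 425 and 429 in the AEBSF cultures. It fell 1.43-fold (log2 change -0.52 with SE 0.09 and an adjusted p = 0.00374 in limma), and all 5 of its tested probe sets had values below 0, of which 1 passed. Pde4b, a phosphodiesterase that degrades cyclic AMP, read 319, 292 and 299 and then 208, 208 and 194, a 1.49-fold fall (log2 change -0.58 with SE 0.12 and an adjusted p = 0.00934 in limma). A further probe set of Pde4b gave -0.44 on the log2 scale (adjusted p = 0.128 in limma). The calls on Crem and Pde4b held under each of the 17 alternatives run.

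Prkar2a, a regulatory subunit of protein kinase A, rose from 4191 ± 126 to 5133 ± 291 (SD, n = 3 each; log2 change 0.29 with SE 0.06 and an adjusted p = 0.00685 in limma), a rise relative to the rest of the array that did not pass with the arrays scaled to their hybridization controls (0.285) or with a constant variance prior (0.0727). A further probe set of Prkar2a also passed (0.29, adjusted p = 0.0215 in limma). Gnas, which encodes the stimulatory G protein subunit the receptor couples to, stood at 15940 ± 1285 and 16926 ± 1062 (adjusted p = 0.434 in limma). Gnb1, a G protein beta subunit, stood at 6325 ± 270 and 7099 ± 245 (adjusted p = 0.061 in limma), and the CREB-family factor gene Atf1 at 6639 ± 191 and 6790 ± 422 (0.767). Gnb1 passed with the filter at the 60th percentile (adjusted p = 0.0473 in limma), without mineralizing culture 3 (0.0497) and on averaging its probe sets (0.027), and a dimmer probe set of it had passed (0.32 on the log2 scale, adjusted p = 0.00285).

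Genes known to be induced by parathyroid hormone in osteoblasts gave 3 falls among 16 tested of 24 listed, 13 that did not pass and 0 rises (1 higher and 4 lower at an unadjusted limma p under 0.05), with a median log2 fold change of -0.20. Over all tested genes 9.22% were called lower and 7.09% higher. The genes that fell were Crem, described above, and the AP-1 subunits Jun and Fos. Jun fell from 998 ± 15.1 to 813 ± 25.5 (SD, n = 3 each; log2 change -0.30 with SE 0.07 and an adjusted p = 0.0141 in limma), and Fos fell from 505 ± 19.4 to 411 ± 9.88 (-0.30 with SE 0.09 and an adjusted p = 0.0434 in limma). The other 2 probe sets of Jun gave -0.17 and 0.20 and did not pass (adjusted p = 0.316 and 0.509 in limma). Dusp1, a phosphatase of MAP kinases, stood at 1312 ± 159 and 1138 ± 172, the prostaglandin synthase Ptgs2 at 615 ± 13.5 and 577 ± 33.0, and the orphan nuclear receptor Nr4a1 at 350 ± 18.6 and 388 ± 26.9. None of these 3 passed (adjusted p = 0.228, 0.496 and 0.372 in limma), though Dusp1 did with the arrays scaled to their hybridization controls (log2 change -0.36, adjusted p = 0.0487). The cytokine genes Il6, Lif, Ccl2 and Cxcl1 were among 7 below the signal filter.

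The Jun call was lost without mineralizing culture 1, 2 or 3 (adjusted p = 0.0506, 0.0534 and 0.0531 in limma), with a constant variance prior (0.0537) and on averaging its probe sets (log2 fold change -0.09, adjusted p = 0.573), and the Fos call was lost without any 1 of the 6 arrays (0.0661 to 0.135). Fos also did not pass after quantile normalization or median centring, with no filter or with a constant variance prior (adjusted p = 0.0552, 0.0652, 0.0568 and 0.0571 in limma).

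**Figure D4:**
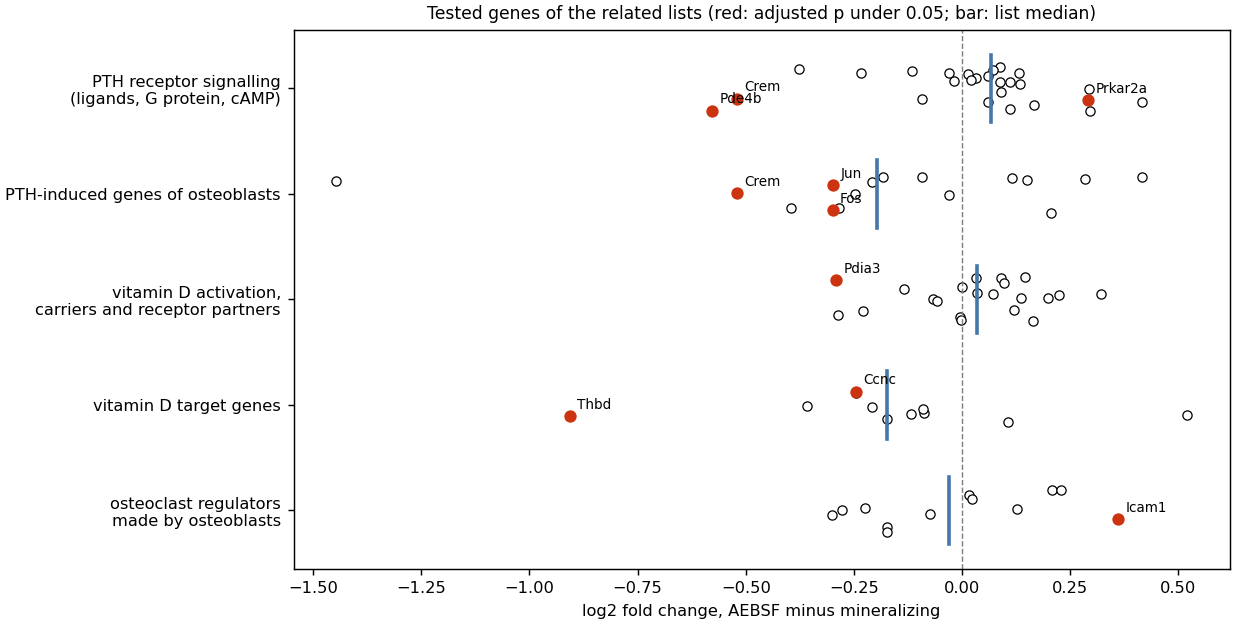
Log2 fold change, AEBSF minus mineralizing, of the tested genes of the 5 related lists; each point is a gene, red and labelled where the adjusted p was under 0.05, and blue bars are list medians. Calls numbered 3 of 26 tested genes, 3 of 16, 1 of 21, 2 of 11 and 1 of 12 from top to bottom. Crem is shown under both parathyroid hormone lists, and 16.3% of all tested genes were called.

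Among partners of vitamin D and its receptor (activating enzymes, carriers, other nuclear receptors and coregulators), 21 of 29 listed were tested, 1 fell, 20 did not pass and 0 rose (1 higher and 1 lower at an unadjusted limma p under 0.05), with a median log2 fold change of 0.03. Of all tested genes 9.22% were called lower and 7.09% higher. The partner gene that fell was Pdia3, a disulfide isomerase of the ER that has also been described as a membrane binding protein for calcitriol. It fell from 8352 ± 601 to 6819 ± 307 (SD, n = 3 each; log2 change -0.29 with SE 0.06 and an adjusted p = 0.0114 in limma), and did not pass with a constant variance prior (0.0909). Its dimmer probe set gave -0.15 (adjusted p = 0.418 in limma). The coregulator genes with the highest signal did not pass: the chromatin remodelers Baz1b (2211 ± 144 and 2447 ± 198) and Smarca4 (2199 ± 73.7 and 2371 ± 343), and the acetyltransferase Ep300 (1825 ± 264 and 2090.0 ± 256), with adjusted p = 0.21, 0.52 and 0.25 in limma. Baz1b passed on averaging its probe sets (adjusted p = 0.0242 in limma) and on a dimmer probe set (0.29, adjusted p = 0.00718), and Smarca4 without AEBSF culture 3 (0.034).

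Of 18 genes listed as targets of the vitamin D receptor, 11 were tested, 2 fell, 9 did not pass and 0 rose (0 higher and 3 lower at an unadjusted limma p under 0.05); the median was -0.17. The shares over all tested genes were 9.22% called lower and 7.09% higher. Thbd, which encodes the anticoagulant receptor thrombomodulin, read 131, 90.8 and 127 in the mineralizing cultures and 45.1, 66.9 and 76.2 in the AEBSF cultures. It fell by 0.91 on the log2 scale (SE 0.26, adjusted p = 0.0406 in limma), a dim gene with wide spread in both groups. Its mean was 116 in the mineralizing cultures but 62.7 with AEBSF, under the filter signal of 67.2. Thbd thus entered the test only through its mineralizing values, and of its 3 probe sets no other was tested. Ccnc, the cyclin of the Mediator kinase module, fell from 1998 ± 29.2 to 1687 ± 36.3 (log2 change -0.24 with SE 0.05 and an adjusted p = 0.014 in limma). The transcription factor gene Cebpb stood at 1580.0 ± 112 and 1370.2 ± 148, the calcium pump Atp2b1 at 2080.2 ± 164 and 1954 ± 115, and the cyclin-dependent kinase inhibitor Cdkn1a at 1978 ± 162 and 1830 ± 255 (adjusted p = 0.126, 0.449 and 0.443 in limma). Cebpb passed with the arrays scaled to their hybridization controls (adjusted p = 0.025 in limma). The bone and calcium transport targets Bglap, S100g, Calb1 and Fgf23 lay below the signal filter.

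Thbd no longer passed when mineralizing culture 1 or 3 was left out (adjusted p = 0.147 and 0.128 in limma) or AEBSF culture 1 or 2 (0.118 and 0.0583), with no filter (0.104) or with a constant variance prior (0.076). The Ccnc call was lost without mineralizing culture 1 or 2 (0.065 and 0.0532), with a constant variance prior (0.0752) and on averaging its probe sets (0.288), of which the dimmer gave 0.02 (0.934).

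Besides Tnfsf11 and Tnfrsf11b, 30 genes of signalling between osteoblasts and osteoclasts, receptors included, were listed. Of these, 16 lay below the filter and 12 were tested. Among the tested, 1 rose, 11 did not pass and 0 fell (1 higher and 0 lower at an unadjusted limma p under 0.05). The median log2 fold change was -0.03. For comparison, 7.09% of all tested genes were called higher and 9.22% lower. Icam1, an adhesion molecule, rose: it read 252, 270.5 and 282 and then 345, 332 and 354 (log2 change 0.36 with SE 0.11 and an adjusted p = 0.0481 in limma). This call was lost without any 1 of the 6 arrays (adjusted p = 0.0718 to 0.157 in limma), after median centring (0.0681), with no filter (0.0675) and with the arrays scaled to their hybridization controls (0.362). Csf1, the growth factor that osteoclast precursors need beside RANKL, did not pass (adjusted p = 0.494 in limma). It read 1065, 1062 and 1276 and then 1270, 941 and 1858. All 4 of its probe sets were tested and 0 passed, with log2 changes of 0.21, 0.03, -0.35 and 0.76. Lgr4, another receptor for RANKL, stood at 725 ± 18.2 and 734 ± 62.7, and the cytokine receptor subunit Il6st at 1076 ± 15.8 and 1022 ± 26.3 (adjusted p = 0.924 and 0.477 in limma). Tnfrsf11a, the signalling receptor RANK, lay below the filter.

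**Figure D5:**
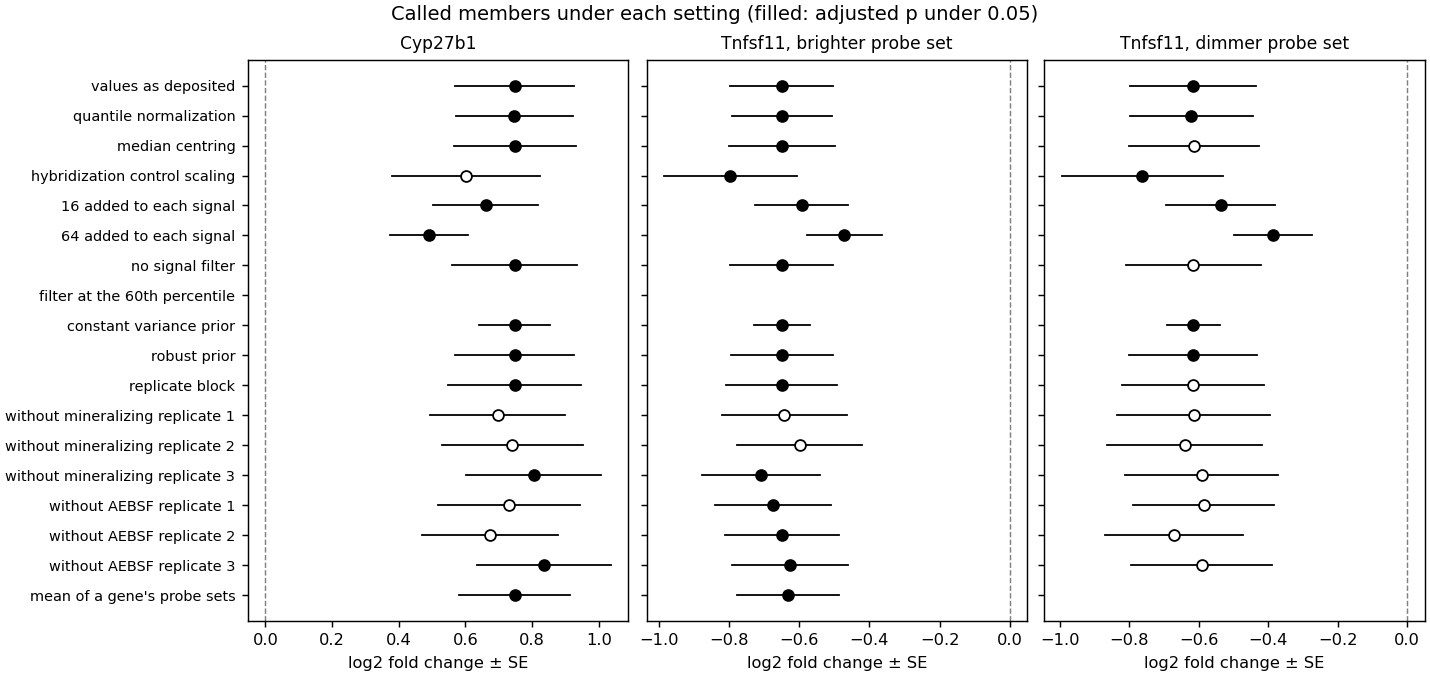
Log2 fold change ± SE (points and lines) of the 3 called probe sets under each setting of the analysis; filled points passed an adjusted p of 0.05. All estimates keep their sign, calls are lost mostly where an array is left out, and none of the 3 is bright enough to be tested with the filter at the 60th percentile, so that row is empty.

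The cells carried the osteoblast transcripts Ibsp, Alpl, Col1a1 and Spp1 above the filter, while Bglap lay far below it (signals of 1.41 to 7.46); 2 further markers, Runx2 and Sp7, were not analysed here. Col1a1, the type I collagen gene, fell from 982 ± 91.2 to 617 ± 61.5 (SD, n = 3 each; log2 change -0.67 with SE 0.09 and an adjusted p = 0.00116 in limma) and kept its call under each of the 17 alternatives run, while Ibsp, Alpl and Spp1 did not pass (adjusted p = 0.571, 0.643 and 0.297 in limma). The summed signal of the 5 measured osteoblast markers was 19504 to 20598 in the mineralizing and 20012 to 20573 in the AEBSF cultures. Most of it was Ibsp (16520 ± 750 and 17101 ± 251), so the sum hides the fall of Col1a1. The part of the osteoblast markers in the changes of Tnfsf11 and Cyp27b1 was not tested. Of 4 measured osteoclast markers 0 lay above the filter, with summed signals of 127 to 176 in the mineralizing and 63.6 to 170.0 in the AEBSF cultures. Within these sums Acp5 and Calcr were lower in every AEBSF culture than in any mineralizing culture, as were 19.1% of tested genes. Ctsk, which read 80.6 in AEBSF culture 1, and Tnfrsf11a overlapped. Of 5 macrophage markers only Csf1r lay above the filter, with sums of 172 to 252 and 165 to 185. Of 4 kidney tubule markers only Lrp2 did, with sums of 209 to 297 and 203 to 242. Neither Csf1r nor Lrp2 passed (adjusted p = 0.575 and 0.246 in limma). The arrays had medians of 127 to 136 and were scaled by the authors to a common level, so each rise or fall is relative to the rest of the array. Scaling to the hybridization controls shifted the median log2 change over all probe sets from 0.012 to -0.13 and the split of the 2495 called probe sets (13.4% of 18625), 1115 higher and 1380 lower, to 119 higher and 2457 lower.

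The genes whose log2 signal followed Pth1r most closely over the 6 arrays, among 9863 others, were Zpbp2, Fat3 and Smpd1 (Pearson r = 0.997, 0.995 and 0.989). For Tnfrsf11b they were Arhgap45, Fbn1 and Slc7a5 (r = 0.987, 0.98 and 0.976). None of the 6 passed in limma, and with so many genes and 6 points that share their arrays these are descriptions.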

How the data were processed

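RNA from 6 cultures was hybridised to 1 Affymetrix rat array each. The authors deposited an intensity for each probe set on each array; the submitters' processing notes name MAS5 and GCOS, with no version, and the scaling target is not given in the sources used here, nor are detection calls. Groups and replicate numbers came from the sample titles. Names came from the platform annotation, with symbols updated through Entrez identifiers to the RefSeq annotation of GRCr8: of 31042 probe sets other than controls, 20826 had 1 symbol, 436 several and 9780 none. Log2 signals with no added constant were tested in R 4.3.3 with limma 3.58.1 (lmFit; eBayes, trend = TRUE) over the 18625 probe sets above the 40th percentile of mean log2 signal, a signal of 67.2, with Benjamini-Hochberg adjustment over all of them; the procedure was tested on simulated data. A gene was its single-symbol probe set of highest mean signal. Precision is limited by 3 arrays per group. The text names all 7 members, each called gene of 5 lists and up to 3 of the brightest uncalled ones, markers of other cell types, and the 3 genes most like 2 members; others are named for their place in a list. The members and lists were chosen with earlier results of these data known. Alternatives were quantile normalization, median centring, scaling to 18 hybridization control probe sets, added constants of 16 and 64, no filter or the 60th percentile, a constant or robust prior, a replicate block, averaging a gene's probe sets, and leaving out each array.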

Additional observations from a re-analysis of the deposited data

How the results depend on the processing

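All estimates for Tnfsf11 (both probe sets), Cyp27b1, Pth1r, Rxra and Tnfrsf11b kept their direction under every alternative that gave a value; the 60th percentile filter, a signal of 241, left Vdr, Rxra, Cyp27b1 and Tnfsf11 untested. The number of called members was 1 with hybridization control scaling, 0 at the 60th percentile (0 at an unadjusted limma p under 0.05) and 0 to 2 without 1 array. Called probe sets numbered 885 with a constant variance prior and 1203 to 2257 without 1 array. Without 1 array the log2 fold change of Cyp27b1 was 0.67 to 0.84, of Tnfsf11 -0.71 to -0.60, of its dimmer probe set -0.67 to -0.59 and of Vdr -0.17 to 0.15. Cyp27b1 lost its call with hybridization control scaling (0.60), where Vdr turned to -0.13, and the dimmer Tnfsf11 probe set lost its call after median centring (-0.61), with no filter (-0.62) and with the replicate block (-0.62, limma adjusted p = 0.0852). Counts of called genes without 1 array were 1 to 3 for genes induced by parathyroid hormone, 1 to 3 for vitamin D partners, 0 to 2 for vitamin D targets and 0 for osteoclast regulators (1 to 4 at an unadjusted limma p under 0.05). Genes induced by parathyroid hormone numbered 5 with hybridization control scaling and 1 with a constant prior; vitamin D partners 0 with a constant prior and 2 with probe set means; vitamin D targets 1 with no filter, the 60th percentile, the replicate block or probe set means and 0 with a constant prior. Osteoclast regulators numbered 0 after median centring, hybridization control scaling, no filter and the replicate block. Uncalled genes that changed sign were Atf1 (-0.044 after quantile normalization, -0.12 with hybridization control scaling, -0.019 to 0.065 without 1 array), Gnas (-0.024 and -0.059 under those 2 scalings), Baz1b (-0.0011), Smarca4 (-0.049) and Lgr4 (-0.13) with hybridization control scaling, Lgr4 (-0.038 to 0.085) and Csf1 (-0.048 to 0.44) without 1 array, and Il6st (0.13) with probe set means. The replicate numbers did not pair the cultures: deviations of same-numbered cultures correlated at 0.011, -0.12 and -0.036, and the block gave 1802 called probe sets. With it Fos, Thbd and Icam1 also did not pass (limma adjusted p = 0.0839, 0.0655 and 0.0815). The cause of each lost call was not tested. Low signal limits Vdr, Rxra, Cyp27b1 and Tnfsf11, and values without detection calls cannot show whether a dim transcript was absent.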

Other observations

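Among cytochrome P450 genes other than Cyp27b1, picked by symbol after the data were seen, 9 of 57 with a probe set were tested, 3 fell and 6 did not pass; over all tested genes 9.22% were called lower and 7.09% higher. Cyp4v3, a fatty acid hydroxylase, fell from 447 ± 8.19 to 320.2 ± 12.4 (SD, n = 3 each; log2 change -0.48 with SE 0.10 and an adjusted p = 0.00758 in limma). Cyp51, which demethylates lanosterol in cholesterol synthesis, fell from 4939 ± 48.4 to 3993 ± 120 (-0.31 with SE 0.05 and an adjusted p = 0.00274 in limma). Both calls held under each of 17 alternatives, which for these families and Col1a1 were added after the data were seen. Cyp20a1 fell as well (-0.25, adjusted p = 0.0291 in limma), a call lost under 9 of the 17.

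Among the receptors of the TNF family other than the RANKL decoy, likewise picked by symbol afterwards, 5 of 13 with a probe set were tested, 2 rose and 3 did not pass, beside the 7.09% of all tested genes called higher. Tnfrsf1a, the main receptor for TNF, stood at 1008 ± 67.7 and 1209 ± 64.8 (SD, n = 3 each; log2 change 0.26 with SE 0.07 and an adjusted p = 0.0354 in limma). Tnfrsf21, a death-domain receptor, stood at 380 ± 27.8 and 490.1 ± 52.0 (0.37 with SE 0.11 and an adjusted p = 0.0431 in limma). Tnfrsf1a lost its call under 8 alternatives and Tnfrsf21 under 9, among them scaling to the hybridization controls (adjusted p = 0.535 and 0.339 in limma). Of 5 other TNF-family ligands 1 was tested and did not pass. Its log2 change was -0.70, a fall no smaller than that of Tnfsf11 (-0.65).

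Of 10 tested phosphodiesterase genes, picked in the same way, 1 passed (Pde4b), beside the 16.3% of all tested genes called in either direction. Of 13 tested nuclear receptors with symbols of the Nr type, 1 passed in limma: Nr1d2, a repressor of the circadian clock, stood at 2056 ± 154 and 1744 ± 30.3 (log2 change -0.24 with SE 0.06 and an adjusted p = 0.0337 in limma), a call lost under 10 of 17 alternatives.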
